A study of Mus musculus with 104 samples.

Results

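Gene expression in the periaqueductal gray (PAG) of the adult mouse midbrain was set against that of the roof of the same midbrain, the superior colliculus (SC) and the inferior colliculus (IC). The tissue was chosen by its labels alone: 2 PAG arrays against 2 SC and 2 IC arrays, with equal weight for each colliculus, so 6 arrays out of a series with 2 arrays in each of 52 regions. All came from male Balb/c mice aged 7 to 8 weeks, kept in 12 h of light and 12 h of dark, with tissue punched bilaterally with a 0.5 mm needle out of 0.5 mm slices. Each array held total RNA pooled over 6 times of day, 4 h apart, and the labels leave unsaid which samples were taken in light and dark cycles and which in constant darkness. The study's design text says that sampling was done independently for the 2 arrays of a region, but not that they came from separate animals. Each p and SE below therefore reflects replicate differences among arrays, pooled over all 52 regions, and cannot be read as variation between animals. A wide gap between the 2 PAG arrays for a gene enters its p and SE only in part.

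The PAG surrounds the cerebral aqueduct, which is lined by ciliated ependymal cells, and takes part in pain control, defence, vocalisation and autonomic regulation. Its ventral part borders the dorsal raphe nucleus, a main source of serotonin to the forebrain, and lies close to the oculomotor and Edinger-Westphal nuclei, which hold cholinergic and urocortin neurons. The SC is a layered visual and orienting structure and the IC a relay of the auditory pathway. The labels do not give the position of the punches, and in such bulk RNA fewer cells of a type and less RNA per cell cannot be told apart.

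The deposited values are log2 expression levels, 1 probe set per gene for 18193 genes. A gene was called higher or lower when limma's adjusted p was under 0.05 and the difference, PAG minus the mean of SC and IC, was at least 2-fold. By this rule 114 genes were higher in the PAG, 0.627% of the genes tested, and 73 were lower, 0.401%, which makes 187 in either direction, 1.03%. The counts of called genes in each list below are to be set against these shares. By adjusted p alone 8.12% were higher and 6.06% lower, so most of the differences past that test were smaller than 2-fold. Set against the SC alone, 0.709% of genes were called higher and 0.561% lower, and against the IC alone 0.868% and 0.621%. In both of these contrasts at once, 73 genes were called higher than both SC and IC (0.401%) and 31 were called lower than both (0.17%). The contrasts share the PAG arrays. The median difference over all genes was -0.03 and the median SE 0.10, both on the log2 scale.

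Each collicular label was set beside 1 gene, while for the PAG no marker that defines it alone was at hand. Pax7, a transcription factor of the developing midbrain roof, had its highest mean of all 52 regions in the SC, 9.31. It was also high in the pituitary, 8.79, and the dorsal tegmental nucleus, 8.67. Tfap2d, a transcription factor known in the mouse IC, had its highest mean in the IC. Both genes were picked with earlier results of these data known, so they are no independent check of the labels. The 2 arrays of a region correlated across genes at r = 0.996 in the PAG, 0.997 in the SC and 0.994 in the IC. The first IC array stood apart in cerebellar genes, and the SC arrays stood apart in the spiked hybridisation controls. The median level of those controls was 10.26 and 10.32 in the PAG arrays, 8.81 and 9.10 in the SC arrays and 10.04 and 10.05 in the IC arrays, within a range of 7.55 to 11.14 over all arrays of the series. The PAG arrays were thus near the IC arrays in this measure and above the SC arrays, and the part of this in the contrast with the SC was not tested. The 18S ribosomal RNA control measured 9.51 and 9.56 in the PAG arrays, 8.01 and 8.17 in the SC arrays and 9.27 and 9.44 in the IC arrays, again lowest in the SC. The actin control's 3′ minus 5′ log2 difference, a sign of RNA quality, was 1.03 and 1.07 in the PAG arrays, 1.26 and 1.25 in the SC arrays and 1.09 and 1.02 in the IC arrays, and the part of both in the contrast with the SC was not tested.

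The genes with the largest differences were those that neurons use to make, load and take up serotonin. Of 15 measured genes in a list for serotonin neurons, 6 rose in the PAG (Tph2, Slc18a2, Slc6a4, Ddc, Gch1 and Maob) and none fell, with a list median of 0.39 against -0.03 for all genes. Tph2, the rate-limiting enzyme of serotonin synthesis in the brain, had log2 levels of 11.38 and 10.11 in the PAG arrays, against 4.62 and 4.53 in the SC and 4.51 and 4.50 in the IC. Both PAG arrays were far above the 4 collicular arrays, which lay near the bottom of the scale. The difference was 6.20 ± 0.14 (SE) on the log2 scale, with an adjusted p of 3.17e-43 from limma. That SE uses the variance pooled over the 52 regions and is small beside the SD of the 2 PAG arrays, 0.90. The collicular values lay near the median of the other 49 regions, 4.50, so an exact fold cannot be read from them. The mean of 10.74 ± 0.90 (SD, n = 2) was the highest of the 52 regions, but it exceeded that of the dorsal tegmental nucleus, 10.62 ± 0.31, by less than the spread between the PAG arrays. The next region, the pontine nucleus, had a mean of 5.89.

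Slc6a4, the plasma membrane serotonin transporter, measured 11.89 and 10.49 in the PAG, against 6.69 and 6.84 in the SC and 6.65 and 6.62 in the IC. The difference was 4.49 ± 0.17 (SE, adjusted p = 3e-30 in limma), and its region means ran in the same order, PAG, dorsal tegmental nucleus, pontine nucleus. Slc18a2, which loads all monoamines into vesicles, measured 11.50 and 9.88 in the PAG, against 5.76 and 6.46 in the SC and 5.51 and 5.88 in the IC, a difference of 4.79 ± 0.32. The 3 genes shared a pattern within the PAG: the first array was above the second by 1.27 for Tph2, 1.39 for Slc6a4 and 1.63 for Slc18a2. The gap between the PAG arrays was thus large for replicates, though small beside the difference from the colliculi. Without the first PAG array the differences from the colliculi were 5.57 for Tph2, 3.79 for Slc6a4 and 3.97 for Slc18a2, all still called. Of the 15 serotonin genes, 13 were higher in the first PAG array, against 8671 of the 18193 genes tested.

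Ddc, the decarboxylase shared by serotonin and dopamine neurons, measured 12.42 and 11.21 in the PAG, 8.40 and 8.43 in the SC and 6.94 and 7.48 in the IC, a difference of 4.00 ± 0.20. A second probe set for Ddc gave a difference of only 0.09, so the probe sets of this gene disagreed, and without the first PAG array the difference was 3.40. Maob, the monoamine oxidase found in serotonin neurons and astrocytes, was 1.50 ± 0.14 higher. Fev, the transcription factor that defines serotonin neurons, was not analysed here.

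Serotonin and dopamine synthesis both need the cofactor tetrahydrobiopterin, and a list for its supply, drawn up after the values were seen and so no support for a pattern, had 3 of 7 genes called higher. Gch1, the enzyme that starts its synthesis, measured 8.52 and 6.95 in the PAG, against 6.21 and 6.12 in the SC and 5.99 and 6.08 in the IC. Its difference of 1.63 ± 0.20 was 0.85, and no longer called, without the first PAG array, and 2.30 over the mean of its probe sets. Gchfr, the feedback regulator of that enzyme, measured 8.38 and 7.21 in the PAG, against 6.04 and 5.96 in the SC and 6.32 and 6.14 in the IC, and its PAG mean of 7.79 ± 0.83 (SD, n = 2) was the highest of the 52 regions, but exceeded that of the dorsal tegmental nucleus, 7.29, by less than the spread between the PAG arrays. It was 1.68 ± 0.14 higher than in the colliculi, and 1.09 without the first PAG array. Dnajc12, a cochaperone of the aromatic amino acid hydroxylases, was 1.18 ± 0.10 higher in the PAG and 0.98 higher, and no longer called, without its first array. Spr, the last enzyme of tetrahydrobiopterin synthesis, differed by 0.52 and was not called.

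**Figure D1:**
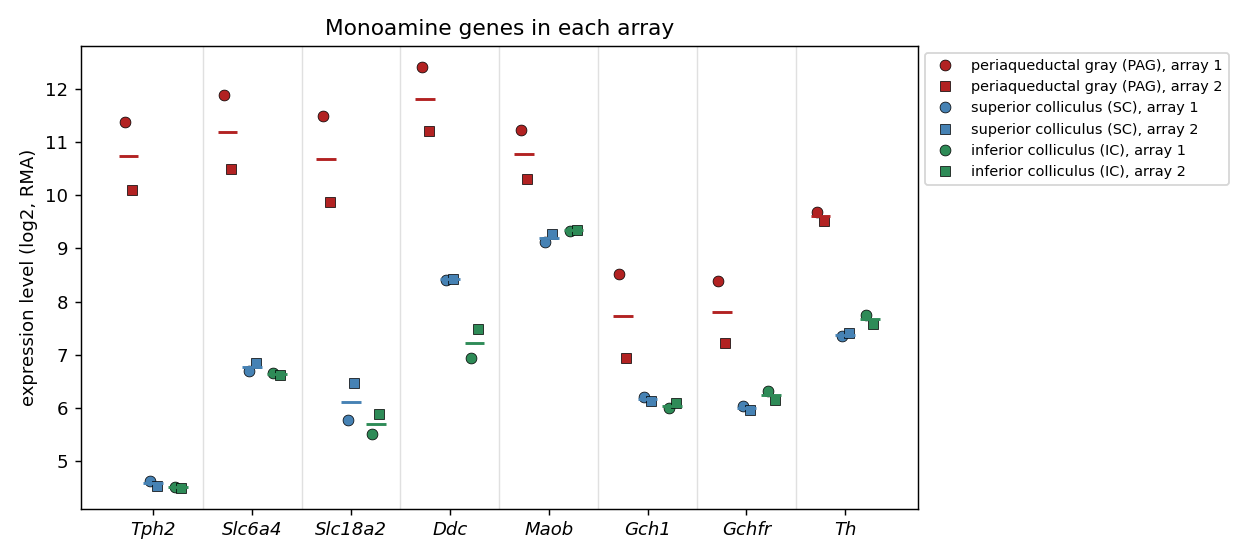
Log2 level of 8 monoamine genes in each of the 6 arrays, in PAG, SC and IC from left to right for each gene; circles are the first array of a region, squares the second, and short lines the region means. All PAG points lie above all collicular points, and the first PAG array is above the second for each gene, by 1.27 for Tph2.

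Genes of catecholamine neurons were higher too. Of 14 genes in a list for dopamine and noradrenaline neurons, 5 rose and none fell (median 0.58), 2 of them the Ddc and Slc18a2 already described. Of all genes tested 0.627% rose. Th, tyrosine hydroxylase, which makes the dopamine precursor, measured 9.69 and 9.52 in the PAG, against 7.34 and 7.41 in the SC and 7.76 and 7.58 in the IC. The difference was 2.08 ± 0.20 (SE, adjusted p = 1.1e-12 in limma), with PAG arrays that differed by 0.17, unlike those of the serotonin genes. The PAG was at rank 9 of the 52 regions for Th, below the substantia nigra with a mean of 12.72.

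Foxa1 and Foxa2, transcription factors of the midbrain floor and of dopamine neurons, rose by 1.51 ± 0.18 and 1.41 ± 0.12. Foxa2 measured 8.21 in both PAG arrays, against 6.80 and 6.70 in the SC and 6.92 and 6.80 in the IC, and only the ventral tegmental area had a higher mean. Slc6a3, the dopamine transporter, measured 7.18 and 7.04 in the PAG, against 6.62 and 6.84 in the SC and 6.57 and 6.36 in the IC. These groups did not overlap, but the difference of 0.51 ± 0.11 was below 2-fold and the gene was not called.

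The peptide genes formed a further group. Of 23 measured genes in a list of neuropeptides other than opioids, 6 rose (Cartpt, Calcb, Vip, Ucn, Adcyap1 and Nts) and none fell. The list median was 0.21, and 0.627% of all genes tested rose. Cartpt, the precursor of the CART peptides, had the largest difference of them. It measured 12.21 and 12.77 in the PAG, against 9.10 and 9.27 in the SC and 7.55 and 7.72 in the IC, a difference of 4.09 ± 0.18 (SE, adjusted p = 2.99e-27 in limma). The PAG mean of 12.49 ± 0.40 was second among the 52 regions (rank 2), within its SD of the 12.61 ± 0.18 of the arcuate hypothalamic nucleus.

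Ucn, the precursor of urocortin, a peptide of the corticotropin-releasing factor family made in Edinger-Westphal neurons, measured 8.18 and 9.04 in the PAG, against 6.45 and 6.57 in the SC and 6.48 and 6.71 in the IC. It was the only gene for which both PAG arrays lay above all other arrays of the series (0.0055% of the genes tested). The region next to the PAG was the piriform cortex, 1.19 lower on the log2 scale, and the difference from the colliculi was 2.06 ± 0.12. Calcb, the precursor of a calcitonin gene-related peptide found in motor neurons, measured 7.88 and 8.31 in the PAG, against 5.33 and 5.41 in the SC and 4.97 and 4.99 in the IC. Only the anterior spinal cord had a higher mean. In contrast to the serotonin genes, Cartpt, Ucn and Calcb were higher in the second PAG array, by 0.56, 0.86 and 0.43.

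Vip, vasoactive intestinal peptide, measured 11.37 and 9.58 in the PAG, 7.16 and 6.94 in the SC and 9.15 and 9.31 in the IC. The PAG arrays were 1.79 apart, and the second was close to the IC arrays. Vip was 3.42 higher than in the SC and 1.24 higher than in the IC, and the mean difference of 2.33 ± 0.28 was 1.44 without the first PAG array. Adcyap1, the precursor of PACAP, was 1.06 ± 0.13 higher and Nts, neurotensin, 1.04 ± 0.22 higher; neither kept its call without every array, with values of 0.87 for Adcyap1 without the second PAG array (0.90 over the mean of its probe sets) and 0.84 for Nts without the first. Npy, neuropeptide Y, measured 9.16 and 8.92 in the PAG, 8.97 and 8.79 in the SC and 10.77 and 10.81 in the IC, so the PAG overlapped the SC, and the gene was called lower against the IC alone.

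**Figure D2:**
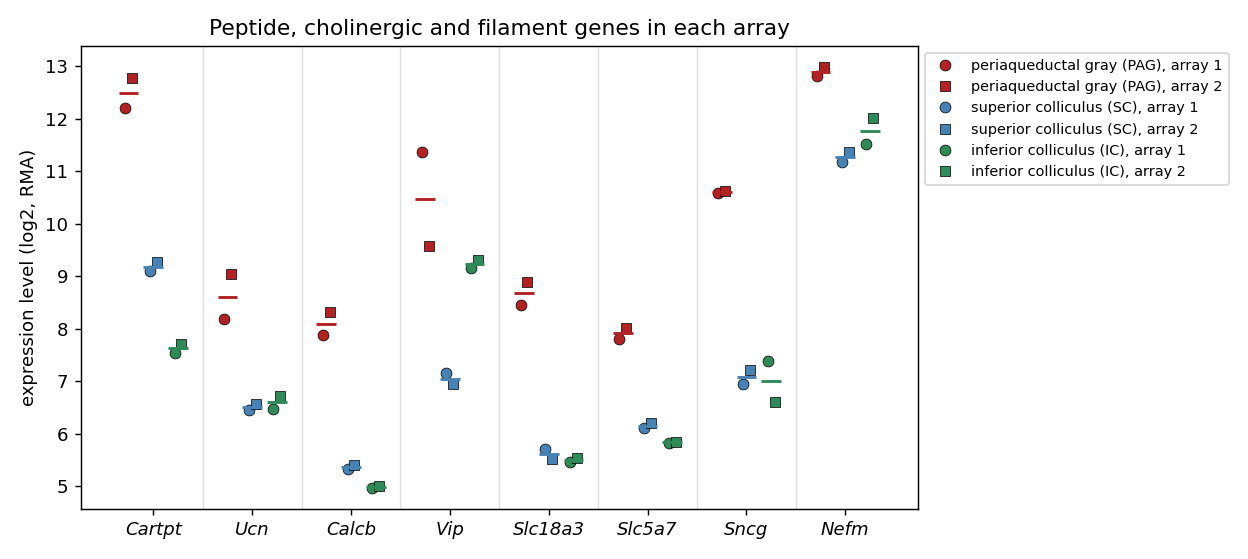
Log2 level of 8 peptide, cholinergic and filament genes in each of the 6 arrays, in PAG, SC and IC from left to right for each gene; circles are the first array, squares the second, and short lines the region means. The PAG points lie above all collicular points for each gene, and the second PAG array is the higher for each gene but Vip.

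Among 7 measured genes of cholinergic neurons, 3 rose and none fell (median 0.81), where 0.627% of all genes tested rose. Slc18a3, which loads acetylcholine into vesicles, measured 8.45 and 8.90 in the PAG, against 5.71 and 5.52 in the SC and 5.47 and 5.53 in the IC. Slc5a7, the choline transporter, measured 7.80 and 8.02 in the PAG, against 6.10 and 6.21 in the SC and 5.83 and 5.84 in the IC. Both sets of PAG arrays were clear of the colliculi, with differences of 3.12 ± 0.17 and 1.92 ± 0.15. Isl1, a transcription factor of motor neurons, was 1.09 ± 0.22 higher, but 0.82 over the mean of its probe sets. Chat, the enzyme that makes acetylcholine, measured 7.77 and 7.44 in the PAG, 7.72 and 7.73 in the SC and 7.71 and 7.37 in the IC, so its probe set showed no separation where the transporters did.

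Nefm, the medium neurofilament of large projection neurons, was 1.38 ± 0.15 higher in the PAG, with 12.81 and 12.99 against 11.18 and 11.37 in the SC and 11.52 and 12.02 in the IC. It was the only member of 25 calcium-binding and fast-spiking genes to rise, and Kcnab3, a potassium channel subunit, the only one to fall, by 1.25 ± 0.14. Kcnab3 was called against the IC, with -1.79, and not against the SC, with -0.71. Sncg, gamma-synuclein, measured 10.58 and 10.62 in the PAG, against 6.94 and 7.21 in the SC and 7.39 and 6.61 in the IC. Its difference was 3.56 ± 0.19, and the PAG was at rank 3 of the 52 regions, with the substantia nigra at the top.

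A short stretch upstream of the transcription start is printed for genes that carry these results. In the window of 250 bases before to 50 after the start (RefSeq, GRCm38.p6), the cyclic AMP response element, TGACGTCA, which reads the same on both strands, was present in 6 of the 90 called higher genes with an entry in the promoter table: Cartpt, Ucn, Th, Slc18a2, Celf6 and Wdr63. That is 6.67%, against 2.92% of the 14452 tested genes with a promoter and 1.79% of all 32851 windows. It was present in 1 of 56 called lower genes, Hlf. The letters TATAAA, searched on both strands, were present in 13 of the 90 called higher genes (14.4%), Tph2 among them, and in 10 of the 56 called lower genes (17.9%), against 11.5% of the tested genes, and no stretch shown holds both motifs. The lines give the 120 bases before the start, 5′ to 3′ on the strand of the gene, with the element in capitals: TGACGTCA for Cartpt (chr13:99900684-99900803, minus strand), Ucn (chr5:31138896-31139015, minus strand) and Th (chr7:142899996-142900115, minus strand), and TATAAA for Tph2 (chr10:115185023-115185142, minus strand).
Cartpt: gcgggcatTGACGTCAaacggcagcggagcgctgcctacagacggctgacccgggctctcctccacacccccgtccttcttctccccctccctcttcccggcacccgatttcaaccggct
Ucn: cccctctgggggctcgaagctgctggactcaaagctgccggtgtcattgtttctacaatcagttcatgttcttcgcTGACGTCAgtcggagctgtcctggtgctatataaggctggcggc
Th: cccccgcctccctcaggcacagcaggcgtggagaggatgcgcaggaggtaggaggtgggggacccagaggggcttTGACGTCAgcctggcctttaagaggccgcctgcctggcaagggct
Tph2: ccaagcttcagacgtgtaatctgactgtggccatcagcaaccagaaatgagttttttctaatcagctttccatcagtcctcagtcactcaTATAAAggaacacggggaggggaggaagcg
The element begins 112 bases before the start in Cartpt, 44 in Ucn and 45 in Th, and TATAAA begins 30 bases before the start in Tph2. A match of letters is a description of the sequence and shows nothing about binding.

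A few receptors for peptides were higher. Of 38 measured peptide and steroid receptors 3 rose (Calcr, Trhr and Hcrtr1) and none fell, with a median of -0.01. Calcr, the calcitonin receptor, measured 8.64 and 7.93 in the PAG, against 5.40 and 5.67 in the SC and 5.47 and 5.32 in the IC, a difference of 2.82 ± 0.27. Trhr, the receptor for thyrotropin-releasing hormone, was 1.84 ± 0.22 higher by its brightest probe set, but 0.46 by the other and 1.15 over their mean. Hcrtr1, an orexin receptor, measured 8.14 and 7.80 in the PAG, against 7.00 and 6.98 in the SC and 6.56 and 6.43 in the IC, and had its highest mean of the 52 regions in the PAG, 7.97 ± 0.24, which exceeded that of the dorsal tegmental nucleus, 7.91, by less than the spread between the PAG arrays. Its difference was called against the IC and not against the SC. Esr1, an oestrogen receptor, was 0.82 ± 0.19 higher and below the 2-fold threshold.

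The PAG is a classical site of opioid action, and no gene was called by limma among 8 opioid peptides and receptors (median 0.16, 4 with an unadjusted p under 0.05). Of all 18193 genes tested, 4855 had an unadjusted p under 0.05 in limma, the share to set this and the following counts against. Penk, proenkephalin, measured 10.21 and 10.40 in the PAG, 8.10 and 9.33 in the SC and 10.27 and 10.09 in the IC. The PAG arrays overlapped the IC arrays and only the SC was lower, and Penk was called against the SC. Against both colliculi its difference was 0.86, and 1.16 and called without the second SC array. None was called among 19 serotonin, dopamine and adrenergic receptors (median 0.04, 7 with an unadjusted p under 0.05), 23 glutamate genes (-0.06, 8 of them) and 7 genes of GABA and glycine synthesis, release and uptake (0.12, 3 of them). These counts depend on the 2-fold threshold: Slc6a5, the glycine transporter of glycinergic neurons, was 0.89 ± 0.12 higher with an adjusted p of 8e-08 in limma, though its other probe set gave -0.02 and their mean 0.43.

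Among 17 GABA and glycine receptor subunits, Glra2 rose by 1.01 ± 0.24 and Gabrd and Gabra6 fell. The fall of Gabra6 rests on the first IC array, without which its difference was -0.29 and not called. Gabrd, the extrasynaptic delta subunit, measured 6.22 and 6.11 in the PAG, against 6.96 and 7.16 in the SC and 8.41 and 7.61 in the IC. Its probe sets disagreed, with a mean difference of -0.72 over them against -1.37 for the brightest and -0.06 for the brightest among probe sets specific to the gene. Glra2 lost its call without the first PAG array (0.82) and without the first IC array (0.91).

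Irs4 and Dlk1 were also among the 14 genes with the largest positive differences. Irs4, an insulin receptor substrate known in the hypothalamus, measured 10.40 and 9.21 in the PAG, against 6.24 and 6.57 in the SC and 6.38 and 6.42 in the IC, a difference of 3.40 ± 0.25. Its probe sets disagreed too, with a mean of 1.98 over them, and the difference was 2.81 without the first PAG array. Dlk1, a membrane protein related to Notch ligands, measured 10.37 and 10.51 in the PAG, against 7.09 and 7.81 in the SC and 7.03 and 7.22 in the IC. For both genes other regions were well above the PAG, which was at rank 16 for Irs4 and 11 for Dlk1.

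Many of the genes called higher in the PAG had their highest levels in the hypothalamus. Of the 114, 48 had their highest region mean in 1 of the 12 hypothalamic regions (42.1%), against 15.9% of all genes tested. The medial preoptic area was the highest region for 21, the arcuate hypothalamic nucleus for 11 and the anterior spinal cord for 10. Among the 21 were members of the ependyma and motile cilia lists described below: Tmem212, Ccdc153, Dynlrb2, Rsph1, Ak7, Rsph4a, Rsph9, Enkur, Wdr63 and Cfap161. The hypothalamic count thus in part repeats those lists. The PAG was the highest of all regions for 7 and among the top 5 for 42, ranks that the choice of genes high in the PAG favours. Across genes the PAG profile correlated at r = 0.992 with the dorsal tegmental nucleus and 0.991 with the lateral hypothalamus, and at 0.987 with the IC and 0.986 with the SC, as a description over 18193 genes that are not independent. The colliculi correlated at 0.989 with each other.

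**Figure D3:**
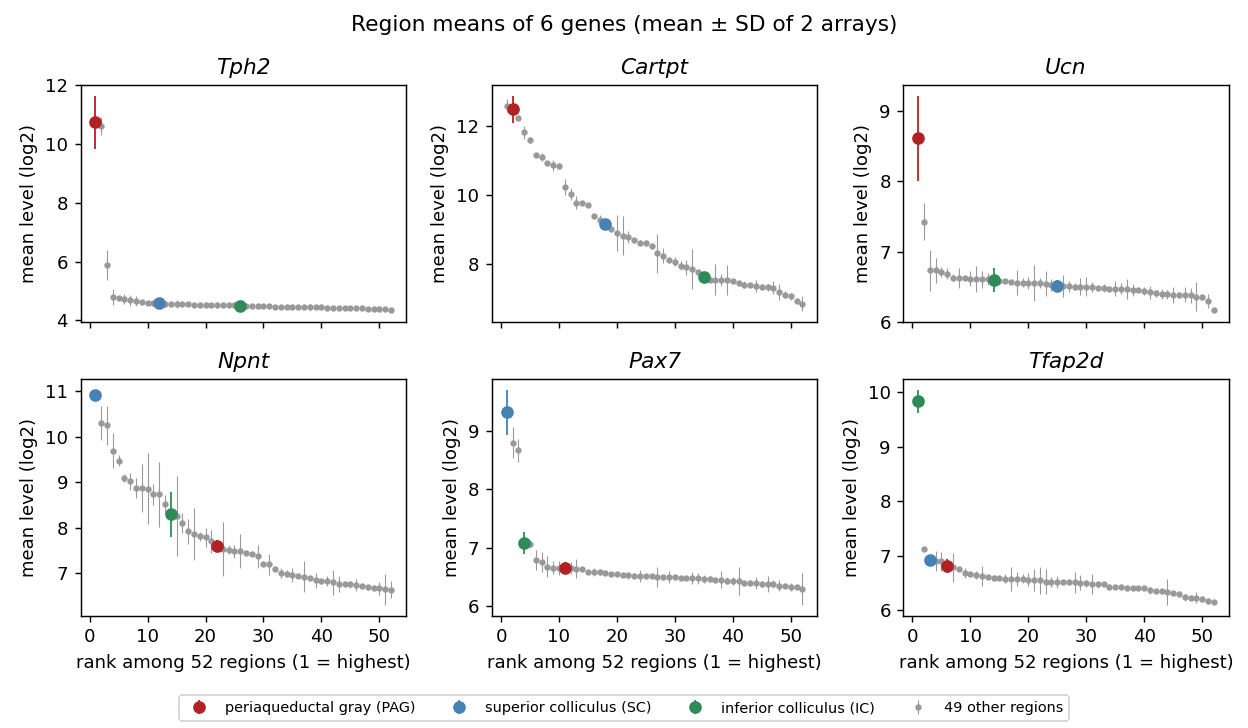
Mean log2 level of 6 genes in each of the 52 regions, ordered from the highest; bars are the SD of 2 arrays, and the PAG, SC and IC are coloured. The PAG is first for Tph2 and Ucn and second for Cartpt, and the SC is first for Npnt and Pax7 and the IC for Tfap2d.

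Genes that were lower in the PAG included transcription factors of the midbrain roof. Of 73 measured midbrain and hindbrain transcription factors, 4 rose (Foxa1, Foxa2, Isl1 and Nr2f2) and 5 fell (Zic1, Tfap2d, Pax7, Meis2 and Otx2), with a median of -0.06. Pax7 measured 6.73 and 6.58 in the PAG, against 9.59 and 9.04 in the SC and 6.95 and 7.22 in the IC. It was 2.66 lower than in the SC and 0.43 lower than in the IC, and called against the SC alone. Tfap2d ran the other way between the colliculi, with 6.72 and 6.91 in the PAG, 6.84 and 6.99 in the SC and 9.68 and 9.98 in the IC. The PAG arrays overlapped those of the SC, so the lower level lies in the contrast with the IC.

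Meis2, a homeodomain cofactor, was lower than in both colliculi, with 8.76 and 9.15 in the PAG, against 10.37 and 10.11 in the SC and 10.63 and 10.91 in the IC (difference -1.55 ± 0.17). Otx2, a regulator of forebrain and midbrain identity, was 1.24 lower on average, with 7.68 and 7.63 in the PAG, 10.32 and 9.86 in the SC and 7.39 and 8.04 in the IC, so it overlapped the IC. Lhx2 fell by 1.64 ± 0.17 and Maf by 1.61 ± 0.22, both called against each colliculus. Nr2f2, a nuclear receptor that patterns the nervous system, measured 9.16 and 10.09 in the PAG, against 8.38 and 8.17 in the SC and 7.53 and 7.63 in the IC, a difference of 1.70 by its brightest probe set and 1.02 over the mean of its probe sets. Lhx9, a factor of the IC and thalamus, was 0.72 lower by its brightest probe set and 2.18 lower over the mean of its probe sets, so its probe sets disagreed on the size.

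Several of the largest lower values belonged to 1 colliculus. Npnt, a matrix ligand of integrins, measured 7.50 and 7.70 in the PAG, against 11.00 and 10.84 in the SC and 7.94 and 8.64 in the IC, and its highest mean of the 52 regions was in the SC. It fell by 2.00 ± 0.25, the mean of -3.32 against the SC and -0.69 against the IC, but the difference was -0.87 over the mean of its 5 probe sets. Mef2c, a transcription factor of excitatory and some inhibitory neurons, measured 8.42 and 8.47 in the PAG, against 9.06 and 9.35 in the SC and 11.06 and 11.31 in the IC. The PAG had the lowest mean of all 52 regions for this gene, 8.45 ± 0.04 (SD, n = 2), but the next lowest, 8.48, lay within that SD. Cdhr1, a cadherin best known in photoreceptors, and Tnnt1, a troponin, fell against the SC by 2.40 and 2.18, and differed from the IC by -0.91 and -0.98, under the 2-fold threshold.

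Genes lower than in both colliculi included several of neuronal signalling. Nrgn, a calmodulin-binding protein of forebrain dendrites, measured 9.39 and 9.73 in the PAG, against 10.77 and 10.43 in the SC and 11.99 and 12.04 in the IC. Gda, guanine deaminase, measured 8.93 and 8.83 in the PAG, against 10.97 and 10.85 in the SC and 10.18 and 10.35 in the IC. Their differences were -1.75 ± 0.17 and -1.71 ± 0.17, with no overlap of arrays. Camk2a, the main kinase of excitatory synapses, fell by 1.24 ± 0.22, but by 0.91 over the mean of its probe sets. Dgkh, a diacylglycerol kinase, fell by 1.65 ± 0.19, or 0.98 over its probe sets. Of 10 cortical and hippocampal neuron genes 2 fell (Nrgn and Camk2a) and Lamp5 rose, by 1.28 ± 0.23. The rise of Lamp5 lies in the contrast with the IC, 2.29, and it was not called against the SC, 0.28. Of 50 axon guidance and adhesion genes 1 rose and 1 fell, both cerebellins, secreted organisers of synapses. Cbln4 measured 9.96 and 9.94 in the PAG, against 9.16 and 8.91 in the SC and 8.48 and 8.49 in the IC, and Cbln2 measured 9.09 and 9.15 in the PAG, against 10.32 and 10.43 in the SC and 10.36 and 10.45 in the IC.

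**Figure D4:**
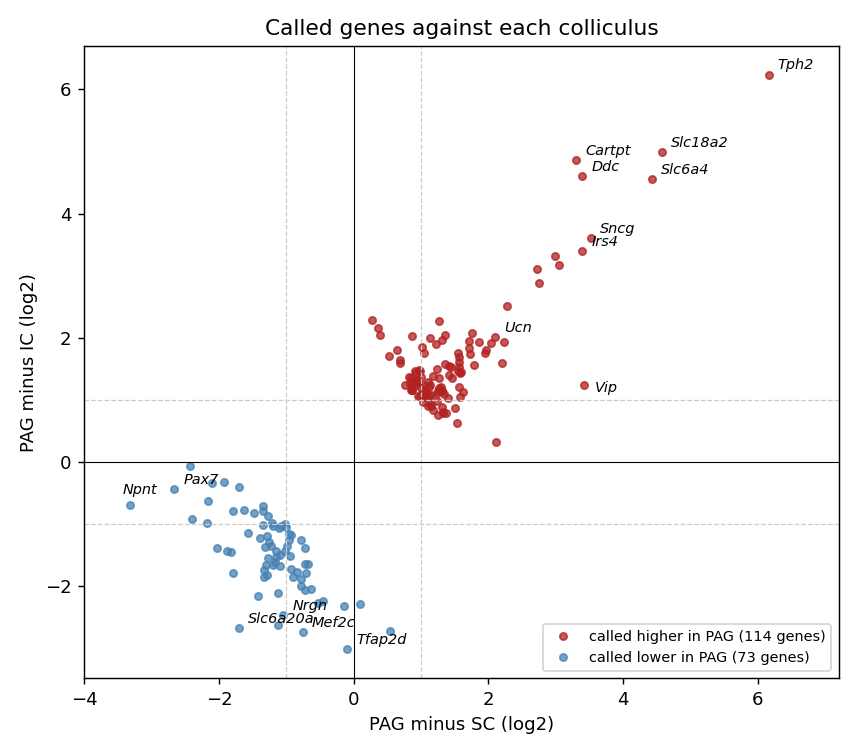
Log2 difference of the 187 called genes from the SC (horizontal axis) and from the IC (vertical axis), with dashed lines at 2-fold; both axes use the same 2 PAG arrays. Tph2, Slc6a4 and Slc18a2 lie near the diagonal, while Vip, Npnt and Pax7 differ mainly from the SC and Tfap2d and Mef2c mainly from the IC.

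Among the core clock genes differences ran towards lower levels in the PAG. Of 19 measured genes 2 fell (Hlf and Rora) and none rose, with a median of -0.41, and 11 had an adjusted p under 0.05 in limma. Both PAG arrays were below all 4 collicular arrays for 15 of the 19, where 14.9% of all genes tested met this, and above them for none. Hlf, a clock-controlled transcription factor, measured 8.96 and 9.49 in the PAG, against 10.62 and 10.51 in the SC and 11.03 and 11.12 in the IC, a difference of -1.59 ± 0.13. Rora, a nuclear receptor that activates clock genes, was 1.28 ± 0.21 lower by its brightest probe set, but 0.82 over the mean of its probe sets. Nr1d1, the repressor REV-ERB alpha, measured 8.38 and 8.29 in the PAG, against 9.56 and 9.44 in the SC and 8.97 and 9.07 in the IC. Its difference of -0.93 ± 0.12 missed 2-fold. The PAG mean, 8.33 ± 0.07 (SD, n = 2), was the lowest of the 52 regions, but the next lowest, 8.34, lay within that SD. Dbp, another clock output, was 0.61 ± 0.15 lower. Each array pools RNA over the day, so these are levels averaged over time and not phases.

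Markers of cells other than neurons differed in several lists. Of 15 genes of ependyma and tanycytes 6 rose and none fell, where 0.627% of all genes tested rose. The list median was 0.46, and the mean level was 7.88 and 7.62 in the PAG, against 7.05 and 7.01 in the SC and 7.16 and 6.97 in the IC. Tmem212, a protein of ciliated cells, measured 10.03 and 9.23 in the PAG, against 7.38 and 7.34 in the SC and 7.39 and 6.85 in the IC. Ccdc153 and Dynlrb2, also of motile cilia, were 1.77 ± 0.16 and 1.86 ± 0.17 higher. Foxj1, the master regulator of motile cilia, was only 0.46 ± 0.11 higher and not called. A list of motile cilia genes, drawn up after the values were seen and overlapping the ependyma list in 4 called genes, had 11 of 43 called higher and none lower (median 0.35), with Rsph4a, a radial spoke protein, 1.97 ± 0.18 higher. Of the 43, 40 were higher in the first PAG array, against 8671 of the 18193 genes tested. The first array was also the higher one for the serotonin genes. Without the first PAG array 6 cilia genes and 4 ependymal genes were called. Whether the ependymal share of the tissue bears on other results was not tested.

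Meningeal and fibroblast genes were lower in the PAG. Of 11, 4 fell (Slc6a20a, Slc6a13, Aldh1a2 and Igf2) and none rose, where 0.401% of all genes tested fell. The median was -0.97, and both PAG arrays were below all collicular arrays for 10, where 14.9% of all genes tested met this. The mean level of the list was 7.02 and 7.08 in the PAG, against 8.25 and 7.42 in the SC and 8.32 and 8.27 in the IC. Slc6a20a, an imino acid transporter with high levels in meninges, measured 6.42 and 6.52 in the PAG, against 8.83 and 7.52 in the SC and 9.17 and 9.12 in the IC. Its difference of -2.19 ± 0.25 was the largest among the genes called lower. Igf2, a growth factor of the meninges, was at -1.02 ± 0.17 and lost its call without the first array of any of the 3 regions. Its other probe set gave -0.19 and their mean -0.60. The second SC array was below the first for this list, and without it 8 genes of the list were called. Slc47a1, a cation exporter, and Islr, a secreted protein of fibroblasts, were not on the list and fell by 1.88 ± 0.23 and 1.78 ± 0.24, with values of 7.28 and 6.65 for Slc47a1, and 9.01 and 7.78 for Islr, in the first and second SC arrays. The part of the meninges in these results was not tested.

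Cerebellar genes were high in 1 array of the IC. Of 10 genes of granule and Purkinje cells 3 fell in the PAG (Zic1, Pcp2 and Gabra6), but the mean level of the list was 7.92 and 7.96 in the PAG, 8.17 and 8.24 in the SC and 10.38 and 7.94 in the IC. Gabra6, a receptor subunit of granule cells, measured 6.36 and 6.32 in the PAG, 6.48 and 6.48 in the SC and 10.52 and 6.79 in the IC. Pcp2, a Purkinje cell protein, measured 7.30 and 7.25 in the PAG, 7.78 and 7.67 in the SC and 11.22 and 7.81 in the IC. Without the first IC array the differences were -0.29 for Gabra6 and -0.50 for Pcp2, neither was called, as was also so without either PAG array, and the median of the list was -0.15 in place of -0.75. Zic1, a transcription factor of granule cells and of the midbrain roof, measured 8.14 and 9.00 in the PAG, against 9.98 and 10.74 in the SC and 11.45 and 9.27 in the IC, and stayed called without that array, but not without the first PAG array.

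Other cell types differed little. Gfap, the filament of reactive and fibrous astrocytes, measured 9.34 and 9.17 in the PAG, against 10.81 and 10.40 in the SC and 10.30 and 10.24 in the IC, and was the only called gene of 12 for astrocytes (median 0.03). By limma none was called among 13 oligodendrocyte genes (median -0.20, 2 with an unadjusted p under 0.05), 7 of oligodendrocyte precursors (0.05, 1 of them), 11 of microglia (-0.09, 3 of them) and 12 of endothelium (-0.07, 1 of them). Otx2 was the only called gene of 8 for the choroid plexus (median 0.02) and Rora of 10 for the thalamus (median -0.24). None was called among 7 pineal genes (median -0.11, 1 with an unadjusted p under 0.05), 2 erythroid genes (-0.33, 2 of them) and 15 immediate early genes (-0.13, 3 of them). These counts stand beside 4855 of the 18193 genes tested with an unadjusted p under 0.05 in limma.

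A list of sterol synthesis genes was drawn up after the values were seen and serves as a description only. In it 4 of 21 measured genes were called higher (Fdps, Insig1, Acly and Cyp51), none lower, and both PAG arrays were above all collicular arrays for 19, where 14.6% of all genes tested met this. Fdps, which makes farnesyl diphosphate, measured 11.07 in both PAG arrays, against 9.79 and 10.11 in the SC and 9.86 and 9.85 in the IC. Its call depended on the probe set, with a mean of 0.54 over its probe sets against 1.16 for the brightest, and the same was true of Cyp51 (0.64) and Acly (0.61). Insig1, which retains the sterol sensor in the endoplasmic reticulum, measured 9.47 and 9.58 in the PAG, against 8.26 and 8.15 in the SC and 8.54 and 8.74 in the IC.

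**Figure D5:**
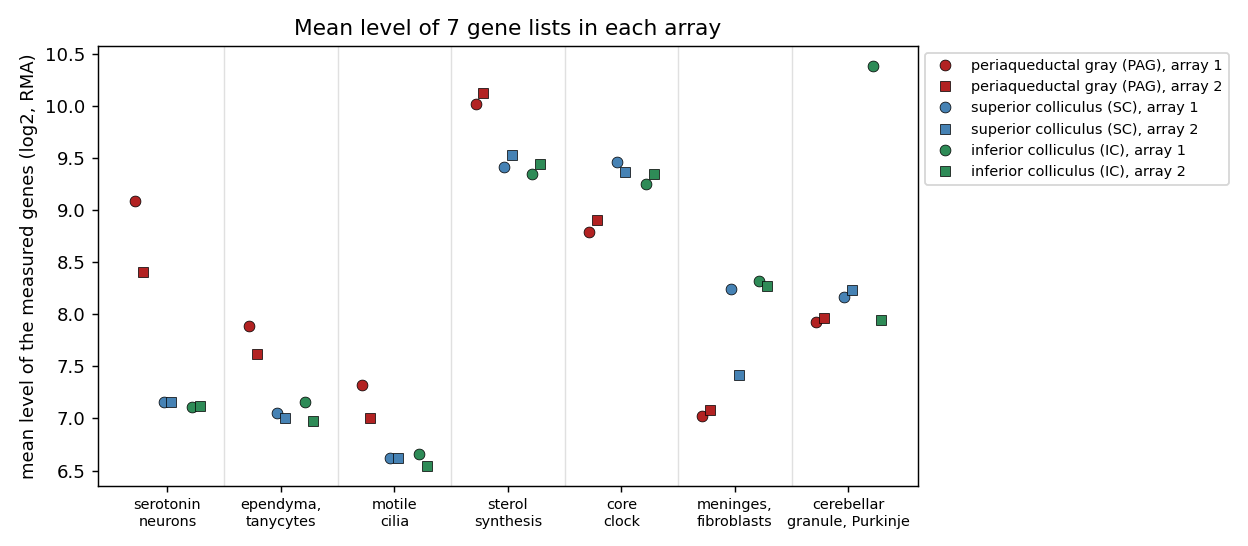
Mean log2 level of the measured genes of 7 lists in each of the 6 arrays, in PAG, SC and IC from left to right for each list; circles are the first array of a region and squares the second. The PAG arrays are above the colliculi for the serotonin, ependyma, cilia and sterol lists and below them for the clock and meninges lists, and the first IC array stands at 10.38 for the cerebellar list.

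Most of the differences of 1 or more between the PAG arrays lay in genes called higher, 14 out of 15 such genes among all 18193. At a cut of 0.5 most did not. Of the 114 higher genes, 24 were at least 0.5 above in the first PAG array and 6 in the second, against 72 and 55 among all genes tested. Calls were therefore tested without each array. Without the first PAG array 89 of the 114 remained called, and without the second 96 did. Of the 73 lower genes 62 remained called without the first PAG array, 67 without the second and 69 without the first IC array. For 3 genes, 0.0165% of those tested, both PAG arrays were below all other arrays of the series: Arl15, Haspin and Tnc. They were named after their values were seen, and none was called against the colliculi together. Arl15 was called lower against the IC alone and Tnc against the SC alone. Tnc, tenascin-C, an extracellular matrix protein of astrocytes, measured 5.57 and 5.55 in the PAG, against 6.63 and 6.65 in the SC and 6.40 and 6.03 in the IC. All these levels were below the overall median of 7.39. Its probe sets disagreed on the size, with a difference of -0.87 for the one shown, -0.14 for the other and -0.51 for their mean.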

How the data were processed

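The deposited values are log2 expression levels that the authors made with RMA, per the submitters' processing notes, which give no version; nothing further was done to them. Depth has no meaning for arrays; with 2 of them per region, their number sets how precise a mean can be. Of 45101 probe sets, 34945 had 1 gene symbol in the platform annotation, 932 several and 9160 none, and 64 were controls. Each of 18193 genes was represented by its probe set with the highest mean over all arrays. A mean per region was fitted over all 52 regions in limma 3.58.1 (R 4.3.3), which left 52 degrees of freedom among arrays beside a prior of 7.87. The contrasts were PAG minus the mean of SC and IC, minus SC and minus IC, two-sided, with Benjamini-Hochberg adjustment over all genes. Calls needed an adjusted p under 0.05 and a 2-fold difference. SEs are from this fit. On simulated data with these arrays, 100 of 100 genes planted at 1.5 and 100 of 100 at 2 (log2) were recovered, with 0 false calls among the genes without a planted difference. The simulation used independent normal noise of each gene's pooled spread and the same mean in all other regions. Both planted sizes exceed the median size of the called differences, 1.23 for higher and 1.3 for lower genes. Recovery of smaller differences, or with PAG arrays far apart, was thus not tested.

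For each direction the text names the 14 called genes that differed most, if the higher mean reached the overall median (7.39), the groups did not overlap and the symbol was not provisional, and up to 10 genes with both PAG arrays above all others. Members of the lists serve as examples. The members and lists were chosen with earlier results of these data known, and the tetrahydrobiopterin, motile cilia and sterol lists after the values were seen. The fit was repeated with the fold threshold dropped, dim genes removed, probe sets averaged or restricted to specific ones, arrays centred or quantile normalized, array weights, a trended robust variance, fewer arrays, the replicate number as a block, and each array left out in turn.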

Additional observations from a re-analysis of the deposited data

Results flagged for a closer look

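For 18 of the genes named with values, the difference from the SC and the difference from the IC were themselves different, by limma's test of SC against IC with at least a 2-fold gap. The gap is the PAG minus SC difference minus the PAG minus IC difference, so a positive gap means a higher level in the IC than in the SC. Among the higher genes with the largest differences, Cartpt was 3.31 above the SC and 4.86 above the IC, a gap of -1.55 (adjusted p = 1.13e-07). Ddc was 3.40 above the SC and 4.60 above the IC, a gap of -1.21 (adjusted p = 0.000156), and Vip was 3.42 above the SC and 1.24 above the IC, a gap of 2.18 (adjusted p = 7e-07). Among the lower genes with the largest differences, 3 differed more from the SC: Npnt with a gap of -2.63 (adjusted p = 2.49e-10), Cdhr1 with -1.50 (1.25e-10) and Tnnt1 with -1.20 (1.79e-05). Another 3 differed more from the IC: Mef2c with a gap of 1.99 (adjusted p = 1.08e-11), Slc47a1 with 1.50 (4.96e-05) and Nrgn with 1.42 (3.07e-07). Among genes of the lists, the gap was positive for Tfap2d at 2.92 (adjusted p = 8.59e-29), Gabra6 at 2.17 (2.54e-05), Pcp2 at 1.79 (0.00243) and Kcnab3 at 1.08 (5.64e-07). It was negative for Otx2 at -2.38 (5.74e-13), Pax7 at -2.23 (2.14e-22) and Lamp5 at -2.01 (5.69e-08). The gaps of Gabra6 and Pcp2 rest on the first IC array, with levels of 10.52 and 11.22. The second IC array had 6.79 and 7.81, near the SC means of 6.48 and 7.73. Of the peptide genes not called against the colliculi together, Npy had a gap of 1.91 (3.24e-10) and Penk one of 1.46 (6.1e-05). With 2 arrays per region, no array could be tested as an outlier of its region.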

How the results depend on the processing

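Of the 77 called genes the text draws on, 52 kept the call under each of the 17 alternatives that gave a value for them. Restriction to specific probe sets gave one for 72 and the dim-gene filter for 71, and 45 genes had a value and the call under all 17. Averaging probe sets ended the call for 13 and leaving out the first PAG array for 14. Leaving out an array in turn gave 101 to 125 genes higher and 62 to 87 lower than the colliculi, 112 to 148 higher and 77 to 142 lower than the SC, 158 to 182 higher and 105 to 126 lower than the IC, and 61 to 85 higher and 21 to 44 lower than both. With the mean of probe sets 48 genes were lower than the colliculi, against 73, and 20 were lower than both, against 31. Without the fold threshold 1478 genes were higher and 1103 lower than the colliculi, 1523 and 1784 than the SC, 1327 and 698 than the IC, and 654 and 323 than both. The replicate block left 114 genes higher and 73 lower, and changed the call of none of the 77. The array differences (first minus second) correlated across genes at -0.03 between PAG and SC, 0.22 between PAG and IC and 0.03 between SC and IC. These values cannot show whether arrays with the same replicate number shared animals or handling. Chat, at -0.03 and not called, turned sign with quantile normalization (0.012) and ranged from -0.19 to 0.14 when arrays were left out. The causes were not tested. Genes near background have their differences compressed: for 52 of the 114 higher genes and 28 of the 73 lower ones, the lower mean was below the median of all values.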
